A study of Homo sapiens with 8 samples.

Results

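Nuclear genes that serve mitochondrial DNA (mtDNA), 9 in number, were followed in the read-count table, chosen by name for their part in its transcription, its replication or its nucleotide supply. All 9 were among the 23393 genes of the table and among the 15262 genes with enough reads to be tested. The data came from MDA-MB-231, an established human breast cancer cell line, in 4 groups of 2 RNA-seq libraries. Parental control cells grew in high-glucose DMEM with 10% FBS and antibiotics, and ρ0 control cells were a derivative of the same line, clone p0#27, that is depleted of mtDNA. Arginine-starved parental and arginine-starved ρ0 cells were collected after 48 h without usable arginine. The sample labels ascribe the starvation to arginine deiminase, an enzyme that degrades arginine, at 0.3 µg/mL in full growth medium, whereas the methods describe a medium lacking arginine. The ρ0 cells are 1 clone that the methods describe as a gift, kept with pyruvate, uridine and ethidium bromide, so effects of mtDNA depletion, of the clone and of its medium cannot be told apart. The labels number the libraries of a group 1 and 2 without saying that they were separate cultures. The p-values therefore rest on the spread between these libraries, pooled over the 4 groups, which may be technical.

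The libraries held 25259503 to 31022155 counts. None of the 15 mitochondrial-genome genes looked for was in the table (0 of 15), so mtDNA depletion itself could not be checked here. The spread between the libraries of a group, as a biological coefficient of variation, was 25.1% for the ρ0 controls against 1.84% to 5.18% in the other groups. The main fit used a single estimate of spread per gene for all groups. Its p-values can thus be too small where the ρ0 controls enter and too large elsewhere. Each fitted fold change that rests on the ρ0 controls is therefore given with and without each of them. The mesenchymal markers VIM and CD44 were high in every library, and the hormone receptor genes ESR1 and PGR had at most 6 counts. Epithelial EPCAM had 397 to 697 counts in ρ0 libraries and at most 15 in parental libraries, CDH1 had 104 to 457 against at most 2, and FOXA1 had at most 4 against 212 to 277. Summed over 8 luminal markers, the level was 298.1 to 386.5 CPM (counts scaled to a library size of 1e+06) in parental and 443.8 to 1269 CPM in ρ0 libraries. KRT8 and KRT18 made up most of these sums. KRT8 had 69.23 to 209.9 CPM in parental and 136.5 to 687.1 CPM in ρ0 libraries. KRT18 had 156.7 to 218.7 against 276.1 to 526.8 CPM. Mesenchymal VIM was higher in ρ0 libraries too, at 1826 to 3635 against 522.3 to 1786 CPM. CD44, CAV1 and AXL were likewise higher without overlap, and FOSL1 overlapped. Immune markers, 4 in all, summed to at most 3.434 CPM. The part of these differences between the lines in the results was not tested.

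Mitochondrial DNA is copied by its own polymerase, whose catalytic subunit POLG works with the accessory subunit POLG2 while the single-strand binding protein SSBP1 coats the exposed strand. It is transcribed by a single-subunit RNA polymerase, POLRMT, which needs TFAM to bend and package the DNA and TFB2M to melt the promoter. TFB1M is a relative of TFB2M that methylates the ribosomal RNA of the small mitochondrial subunit. The kinases TK2 and DGUOK phosphorylate pyrimidine and purine deoxynucleosides inside the organelle, where they supply nucleotides in cells that are not copying their nuclear DNA. All 9 are nuclear genes, and several respond to the transcription factors NRF1 and GABP, of which the latter belongs to the ETS family.

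The promoters of 6 genes are shown because they hold the contrast among the members, 4 with the NRF1 letters and the 2 genes with the largest starvation responses without them. Each run is the 250 bases before a RefSeq start site on GRCh38.p14, written 5′ to 3′ on the gene's strand. Capitals mark every match to the NRF1 letters GCGCATG, to the shorter NRF1 core TGCGCA that can overlap it, or to the ETS core CCGGAAG, each on either strand.
TFB1M, chr6:155314485-155314734, minus strand: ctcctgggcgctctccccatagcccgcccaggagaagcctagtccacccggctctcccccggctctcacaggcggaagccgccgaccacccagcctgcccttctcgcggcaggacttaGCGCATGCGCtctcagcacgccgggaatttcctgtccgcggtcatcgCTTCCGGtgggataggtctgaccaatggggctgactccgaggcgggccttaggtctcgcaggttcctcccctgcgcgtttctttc
TFB2M, chr1:246566262-246566511, minus strand: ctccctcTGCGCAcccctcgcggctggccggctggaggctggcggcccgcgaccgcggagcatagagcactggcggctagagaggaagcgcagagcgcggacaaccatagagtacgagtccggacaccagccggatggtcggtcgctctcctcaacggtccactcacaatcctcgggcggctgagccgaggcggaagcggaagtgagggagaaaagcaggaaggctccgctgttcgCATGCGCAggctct
POLRMT, chr19:633538-633787, minus strand: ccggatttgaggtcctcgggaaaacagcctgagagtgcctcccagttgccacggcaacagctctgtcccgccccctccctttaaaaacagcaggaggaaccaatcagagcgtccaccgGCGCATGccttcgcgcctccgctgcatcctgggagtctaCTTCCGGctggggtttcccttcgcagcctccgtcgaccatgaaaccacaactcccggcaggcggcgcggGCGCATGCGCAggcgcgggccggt
POLG2, chr17:64497055-64497304, minus strand: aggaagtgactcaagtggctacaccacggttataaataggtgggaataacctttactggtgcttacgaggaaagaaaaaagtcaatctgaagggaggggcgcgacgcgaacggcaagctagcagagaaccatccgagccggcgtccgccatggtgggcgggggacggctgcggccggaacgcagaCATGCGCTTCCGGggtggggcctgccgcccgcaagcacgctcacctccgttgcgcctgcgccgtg
TFAM, chr10:58385160-58385409, plus strand: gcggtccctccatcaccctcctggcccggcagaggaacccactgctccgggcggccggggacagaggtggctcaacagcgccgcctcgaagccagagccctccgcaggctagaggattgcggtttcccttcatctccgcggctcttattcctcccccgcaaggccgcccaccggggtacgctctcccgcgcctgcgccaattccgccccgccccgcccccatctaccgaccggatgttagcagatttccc
TK2, chr16:66550123-66550372, minus strand: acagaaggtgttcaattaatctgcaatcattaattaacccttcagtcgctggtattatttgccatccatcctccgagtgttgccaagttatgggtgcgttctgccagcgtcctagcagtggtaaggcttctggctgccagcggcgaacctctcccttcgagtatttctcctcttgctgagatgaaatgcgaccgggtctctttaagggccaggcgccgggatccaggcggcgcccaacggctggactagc
GCGCATG was found before 4 of the 9 genes (TFB1M, TFB2M, POLRMT and POLG2), and before 4.59% of the 27305 genes with a window. It lay 8 to 14 bases before the start of TFB2M and 59 to 65 bases before the start of POLG2, where it shared its end with an ETS core. Both TFB1M and POLRMT had more than 1 match, and in TFB1M a pair of matches on opposite strands overlapped at 123 to 132 bases before the start. TGCGCA was found before 2 of 9 (TFB2M and POLRMT; 8.28% of all genes) and CCGGAAG before 4 of 9 (TFB1M, POLRMT, POLG2 and SSBP1; 10.2%). For SSBP1, RefSeq gives 3 start sites, and a match was found before 1 of them. In the windows of TFAM, POLG, TK2 and DGUOK none of these exact letters was found. Sites that vary from these letters or lie outside the 250 bases were not looked for, so their absence is not shown. A match describes the sequence and says nothing of binding in these cells.

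Per kilobase of the longest coding transcript (GENCODE 29, an approximation, because the annotation behind the counts is not given in the sources used here), SSBP1 and DGUOK had the highest levels of the 9 in every group. In parental control cells the order of the mean levels was SSBP1 (84.1 CPM per kb), DGUOK (78.3), POLG (41.5), TFAM (31.2), POLG2 (19.1), POLRMT (16.5), TFB2M (14.2), TFB1M (11.9) and TK2 (5.54). No neighbours in this order had overlapping libraries. After starvation TFAM stood above POLG in parental cells, at 67.7 against 29.6 CPM per kb, and TK2 remained lowest at 1.63. In ρ0 control cells POLG, TFAM and TFB2M had overlapping levels of 18.7, 17.8 and 17.2 CPM per kb, and TK2 and TFB1M overlapped at the bottom.

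**Figure D1:**
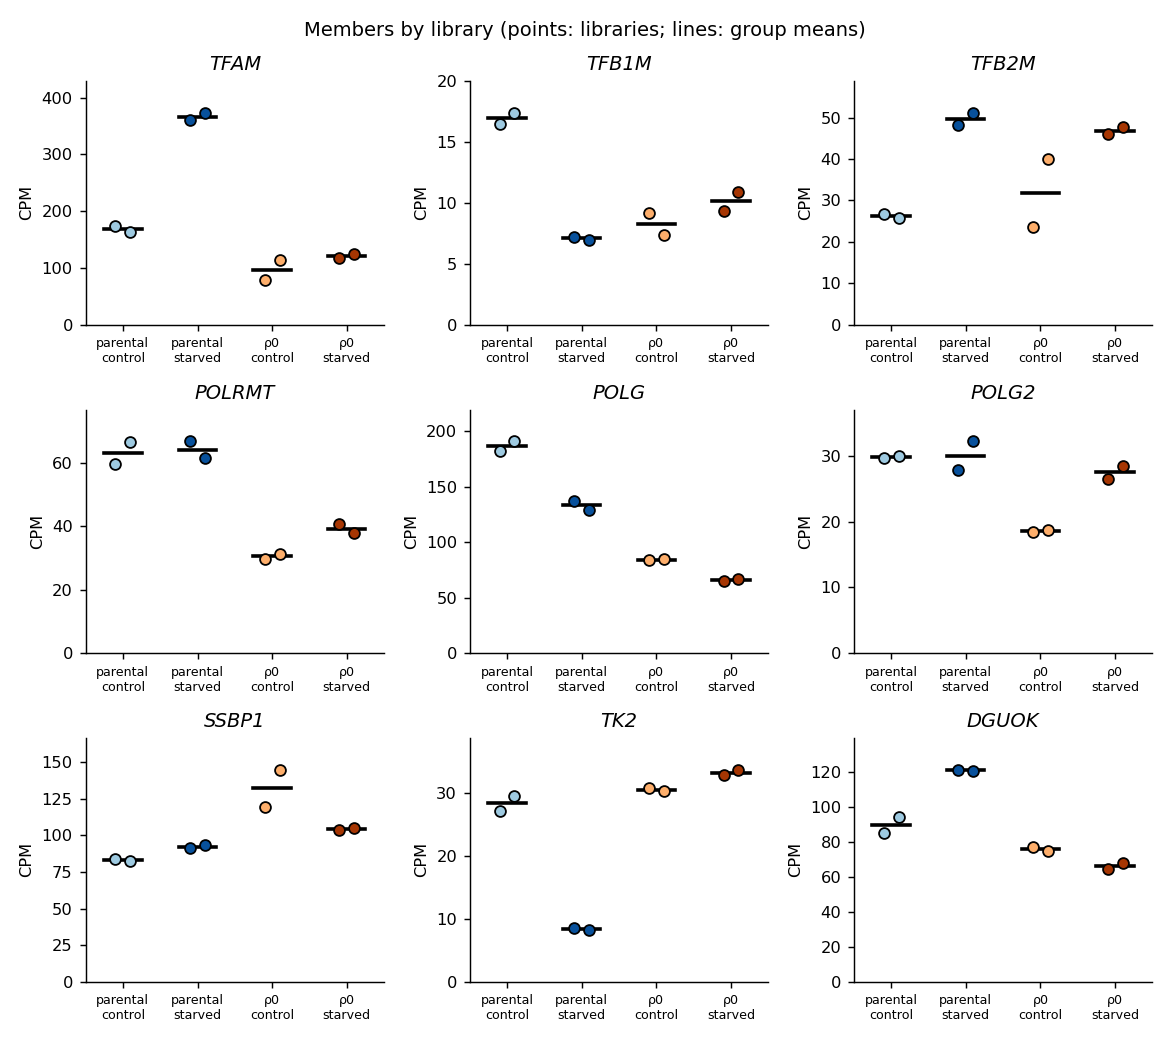
Level of each of the 9 genes in every library, in CPM (vertical axes, each starting at 0), for parental control, parental starved, ρ0 control and ρ0 starved cells. Points are libraries and lines are the means of 2 libraries. TK2 fell to 8.153 and 8.554 CPM in starved parental cells and stayed between 30.26 and 33.67 CPM in ρ0 cells.

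The first comparison asked how arginine starvation changed these transcripts in parental cells. TFAM, TFB2M and DGUOK rose, and TK2, TFB1M and POLG fell, so that 3 of 9 genes were higher and 3 of 9 lower at an adjusted p under 0.05 by edgeR's quasi-likelihood test with Benjamini-Hochberg adjustment over all tested genes. Across all tested genes 30.4% were higher and 35.5% lower, so a share of 6 of 9 is close to the 65.9% of the background. The median log2 fold change of the 9 genes was 0.02 and that of all tested genes -0.07. In bulk RNA, fewer cells of a kind and less RNA per cell cannot be told apart.

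Among the transcription genes, TFAM stood at 174.5 and 163.1 CPM in the control libraries and at 359.9 and 373.1 CPM in the starved libraries. Every starved library was about double the controls, a 2.17-fold rise (log2 1.12, SE 0.155, adjusted p = 0.00051, edgeR). TFB2M had 26.68 and 25.70 CPM in controls and 48.31 and 51.15 CPM in starved libraries. Its rise was 1.90-fold (log2 0.92, SE 0.213, adjusted p = 0.0061, edgeR), again with no overlap between the groups. TFB1M, the rRNA methyltransferase, moved the other way, from 16.49 and 17.40 CPM to 7.247 and 6.948 CPM. It fell 2.39-fold (log2 -1.26, SE 0.152, adjusted p = 0.00025, edgeR), so the 2 related factors changed in opposite directions. The polymerase gene POLRMT had 59.63 and 66.59 CPM in controls and 66.81 and 61.54 CPM after starvation. Those groups overlapped (log2 0.02, SE 0.0950, adjusted p = 0.84, edgeR), and the sign of this small difference turned negative under upper-quartile scaling (-0.10) and total-count scaling (-0.14).

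Of the replication genes, POLG fell from 182.4 and 190.7 CPM to 137.1 and 128.9 CPM. This 1.40-fold fall was small beside that of TK2 but exceeded the spread between libraries (log2 -0.49, SE 0.0731, adjusted p = 0.00074, edgeR). POLG2 stood at 29.59 and 29.98 CPM in controls and at 27.84 and 32.19 CPM in starved libraries, with the controls inside the range of the starved (log2 0.01, SE 0.105, adjusted p = 0.93, edgeR; -0.11 and -0.15 under the same 2 scalings). SSBP1 had 83.65 and 82.77 CPM against 91.44 and 93.19 CPM, a difference that did not pass the test (log2 0.15, SE 0.0993, adjusted p = 0.22, edgeR; -0.01 under total-count scaling). It passed in 2 of 10 other fits, with adjusted p down to 0.0038 (edgeR, DESeq2 or limma-voom). Exons of POLG overlap those of FANCI, a DNA repair gene on the other strand, by up to 431 bases for a single pair of exons in GENCODE 29. Whether reads were counted by strand is not given in the sources used here. FANCI fell as well in starved parental cells (log2 -0.72, adjusted p = 0.00031, edgeR). With starvation in ρ0 cells it also fell (log2 -1.06, adjusted p = 0.00024, edgeR), or by -1.16 and -0.93 without ρ0 control replicates 1 and 2. Between starved cells FANCI was lower in ρ0 cells (log2 -0.57, adjusted p = 0.0010, edgeR). Between the controls of the lines, the FANCI difference did not pass the test (log2 -0.22, adjusted p = 0.061, edgeR). It was -0.12 and -0.28 without ρ0 control replicates 1 and 2. The part of FANCI in the POLG values of these comparisons was not tested.

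The nucleotide kinases changed in opposite directions. TK2 had 907 and 848 counts (27.19 and 29.45 CPM) in controls and 216 and 230 counts (8.554 and 8.153 CPM) after starvation. It fell 3.39-fold (log2 -1.76, SE 0.0991, adjusted p = 1.2e-05, edgeR), the largest change among the 9 genes in this comparison. DGUOK, its purine counterpart, rose from 85.03 and 94.06 CPM to 121.1 and 120.6 CPM, which is 1.35-fold (log2 0.43, SE 0.0804, adjusted p = 0.0022, edgeR). With the study's added requirement of a log2 fold change beyond 1, TFAM counted as higher (1 of 9, against 12.7% of all tested genes) and TFB1M and TK2 as lower (2 of 9, against 22.1%; 34.9% in either direction). The 6 calls held in each of 8 fits that left out a library and in each of 10 other fits without a fold threshold.

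**Figure D2:**
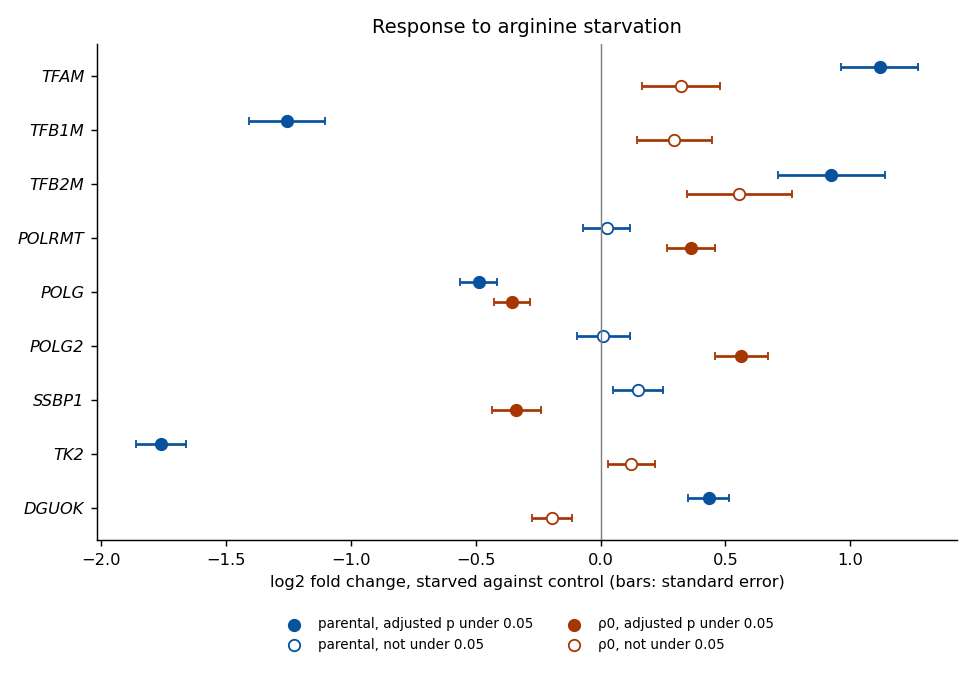
Log2 fold change after arginine starvation (horizontal axis) of the 9 genes (vertical axis) in parental and ρ0 cells, with standard errors as bars, filled where the adjusted p was under 0.05. TK2 lies at -1.76 in parental and at 0.12 in ρ0 cells, and TFB1M at -1.26 and 0.30.

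The second comparison set ρ0 against parental cells, first in full medium. In ρ0 control cells 6 of the 9 genes were lower and 1 was higher, where 31.8% of all tested genes were lower and 30.5% higher, or 62.3% in either direction. The median log2 difference of the 9 genes was -0.68, against -0.01 over all tested genes. These calls share the parental control libraries with the starvation comparison above.

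POLG stood at 83.67 and 84.38 CPM in ρ0 controls, far below both parental controls (2.22-fold lower, log2 -1.15, SE 0.0740, adjusted p = 1.4e-05, edgeR). Its value was -1.14 without ρ0 control replicate 1 and -1.10 without replicate 2. POLRMT had 29.83 and 31.23 CPM, also far under both parental controls (2.07-fold lower, log2 -1.05, SE 0.0967, adjusted p = 7.3e-05, edgeR; -1.01 and -1.03 without ρ0 control replicates 1 and 2). TFB1M was 2.06-fold lower at 9.158 and 7.332 CPM (log2 -1.04, SE 0.150, adjusted p = 0.00067, edgeR; -1.21 and -0.83). The accessory subunit gene POLG2 was 1.60-fold lower at 18.42 and 18.78 CPM (log2 -0.68, SE 0.106, adjusted p = 0.00099, edgeR; -0.66 and -0.64). In 10 other fits without a fold threshold, adjusted p was at most 0.0016 for POLG and 0.003 for POLRMT (edgeR, DESeq2 or limma-voom). It was at most 0.014 for TFB1M and 0.04 for POLG2. Thus both polymerases, for DNA and for RNA, had lower transcripts in the ρ0 controls. Of these, POLG, POLRMT and TFB1M also passed a log2 difference beyond 1 (3 of 9 lower and 0 higher, against 17.3% and 13.6% of all tested genes, 30.9% in all).

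TFAM had 79.27 and 113.6 CPM in the ρ0 controls, a wide gap between 2 libraries of 1 group but below both parental controls (1.75-fold lower, log2 -0.81, SE 0.155, adjusted p = 0.0028, edgeR). Without the lower library, replicate 1, the difference was -0.57, and without replicate 2 it was -1.04. In 10 other fits without a fold threshold, the adjusted p of TFAM was at most 0.022 (edgeR, DESeq2 or limma-voom). TFB2M was similarly spread, at 23.69 and 39.97 CPM on either side of the parental controls (log2 0.28, SE 0.213, adjusted p = 0.28, edgeR). It was 0.61 without replicate 1 (adjusted p = 3.3e-07, edgeR) and -0.09 without replicate 2 (adjusted p = 0.30, edgeR), so 1 library set both its size and its sign. When a ρ0 control was left out, the remaining library was assumed to vary like the other groups, whose spread was small, which makes such p-values smaller.

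SSBP1 was the gene that was higher, with 119.5 and 144.9 CPM (1.59-fold, log2 0.67, SE 0.0994, adjusted p = 0.00078, edgeR; 0.80 and 0.58 without ρ0 control replicates 1 and 2). Its adjusted p was at most 0.014 in 10 other fits (edgeR, DESeq2 or limma-voom). DGUOK was slightly lower at 77.05 and 74.57 CPM (log2 -0.24, SE 0.0806, adjusted p = 0.033, edgeR; -0.26 and -0.16). This last call was lost in 5 of 8 fits that left out a library, with adjusted p up to 0.18, and in 3 of 10 other fits. TK2 had 30.74 and 30.26 CPM, above the parental controls by a margin that did not pass the test (log2 0.11, SE 0.0929, adjusted p = 0.35, edgeR; 0.098 and 0.17).

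**Figure D3:**
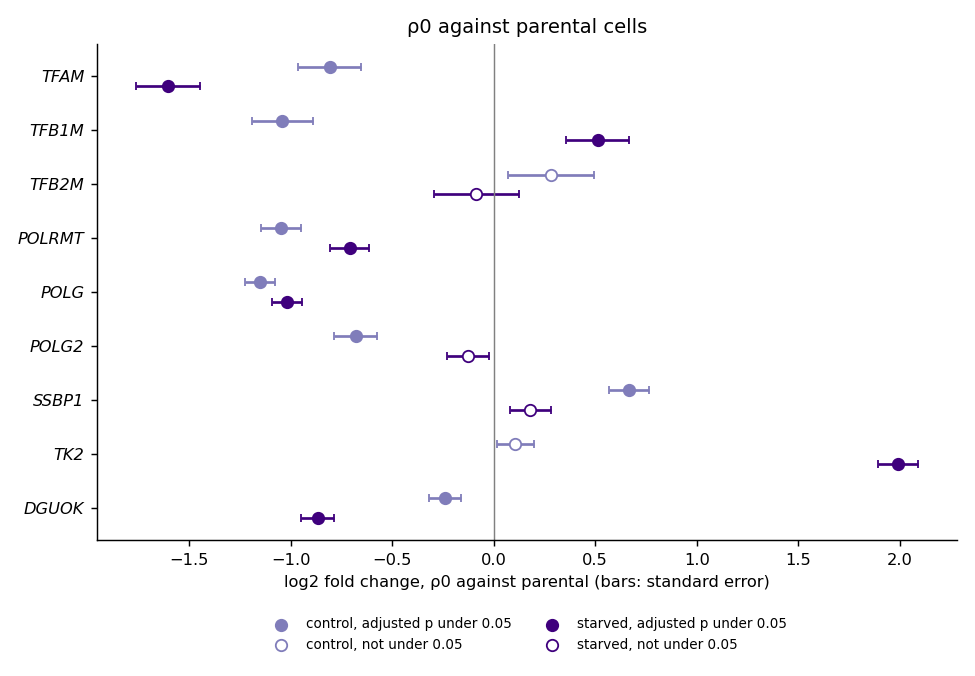
Log2 difference of ρ0 minus parental cells (horizontal axis) for the 9 genes (vertical axis), in control and in arginine-starved cells, with standard errors as bars, filled where the adjusted p was under 0.05. POLG and POLRMT lie left of 0 in both media, and TK2 moves from 0.11 in control to 1.99 in starved cells.

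Between arginine-starved cells of the 2 lines, 4 of 9 genes were lower and 2 of 9 higher in ρ0 cells, against 33.5% and 32.9% of all tested genes (66.5% in all). The median log2 difference of the 9 genes was -0.13, and that of all tested genes was -0.01. TFAM, at 117.1 and 124.2 CPM in starved ρ0 libraries, was 3.04-fold lower than in starved parental libraries (log2 -1.60, SE 0.158, adjusted p = 8.5e-05, edgeR). POLG was 2.02-fold lower at 64.99 and 66.48 CPM (log2 -1.02, SE 0.0743, adjusted p = 2e-05, edgeR), and POLRMT 1.64-fold lower at 40.62 and 37.82 CPM (log2 -0.71, SE 0.0962, adjusted p = 0.00042, edgeR). These 3 genes were thus lower in ρ0 cells in both media. Beyond a log2 difference of 1, 2 of 9 were lower (TFAM and POLG) and 1 was higher (TK2), against 16.8% and 18.7% of all tested genes (35.5% in all).

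DGUOK, at 64.52 and 68.09 CPM, was 1.82-fold lower (log2 -0.87, SE 0.0812, adjusted p = 6.7e-05, edgeR). TK2 was the opposite, with 32.78 and 33.67 CPM and a level 3.98-fold higher than in starved parental cells (log2 1.99, SE 0.0995, adjusted p = 3.9e-06, edgeR). TFB1M was 1.43-fold higher at 9.328 and 10.93 CPM (log2 0.51, SE 0.154, adjusted p = 0.020, edgeR), a call lost in 3 of 8 fits that left out a library, with adjusted p up to 0.11. Differences of TFB2M (-0.09), POLG2 (-0.13) and SSBP1 (0.18) did not pass the test, with standard errors of 0.210, 0.105 and 0.0993. That of SSBP1 passed in 2 of 10 other fits, with adjusted p down to 8.5e-06 (edgeR, DESeq2 or limma-voom).

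The third comparison was arginine starvation in ρ0 cells. POLG2 and POLRMT rose and POLG and SSBP1 fell, which is 2 of 9 higher and 2 of 9 lower against 19.2% and 22.1% of all tested genes (41.3% in all). The median log2 fold change was 0.30 for the 9 genes and -0.02 for all tested genes. With a log2 fold change beyond 1 as well, 0 of 9 were higher and 0 of 9 lower, where 4.22% and 8.19% of all tested genes were (12.4% in all).

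POLG2 went from 18.42 and 18.78 CPM to 26.53 and 28.50 CPM, so both starved libraries stood clear of both controls (1.48-fold, log2 0.56, SE 0.106, adjusted p = 0.0050, edgeR). It was 0.55 and 0.59 without ρ0 control replicates 1 and 2. POLRMT rose 1.28-fold (log2 0.36, SE 0.0968, adjusted p = 0.021, edgeR; 0.33 and 0.41), and POLG fell 1.28-fold (log2 -0.35, SE 0.0739, adjusted p = 0.0077, edgeR; -0.36 and -0.34). SSBP1 fell 1.26-fold (log2 -0.34, SE 0.0990, adjusted p = 0.030, edgeR; -0.47 and -0.18). The calls of POLRMT and POLG were lost when either ρ0 starved library was left out, with adjusted p of 0.063 to 0.13, and that of SSBP1 in 6 of 8 such fits. With limma-voom and a weight for each group, added after seeing the spread of the ρ0 controls, adjusted p was 0.12 for POLG2, 0.25 for POLRMT, 0.084 for POLG and 0.067 for SSBP1.

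TFAM in ρ0 cells was 79.27 and 113.6 CPM before and 117.1 and 124.2 CPM after starvation (log2 0.32, SE 0.155, adjusted p = 0.14, edgeR). The value was 0.09 without ρ0 control replicate 1 (adjusted p = 0.20, edgeR) and 0.62 without replicate 2 (adjusted p = 6.4e-08, edgeR), so it depended on which control was kept. TFB2M showed the same dependence, at 0.56 with both controls (SE 0.212, adjusted p = 0.071, edgeR), 0.23 without replicate 1 and 1.0 without replicate 2. It passed in 3 of 10 other fits, among them that with group weights, with adjusted p down to 0.034 (edgeR, DESeq2 or limma-voom). TFB1M was at 0.30 (SE 0.152, adjusted p = 0.16, edgeR), 0.46 and 0.15. The kinases changed little, with TK2 at 0.12 (SE 0.0929, adjusted p = 0.32, edgeR; 0.14 and 0.12) and DGUOK at -0.19 (SE 0.0809, adjusted p = 0.093, edgeR; -0.17 and -0.21).

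Markers of DNA synthesis fell with starvation in ρ0 cells and differed between the ρ0 controls. The summed level of 10 S phase genes was 1554 and 2650 CPM in ρ0 controls and 824.4 and 828.5 CPM in starved ρ0 libraries. There 10 of 10 genes fell, against 22.1% of all tested genes. Their median log2 fold change was -1.44, or -1.80 and -0.96 without ρ0 control replicates 1 and 2. In parental cells the summed level was 1480 and 1505 CPM before and 1331 and 1320 CPM after starvation. Of the 10 genes 2 fell and 0 rose there, against 35.5% and 30.4% of all tested genes, with a median log2 fold change of -0.19. With limma-voom and group weights, 6510 of 15262 tested genes were lower and 5715 higher in starved parental cells. In that fit 5 of the 10 genes fell and 1 rose. Of these genes, MCM5, a subunit of the replicative helicase, fell in parental (log2 -1.52, adjusted p = 0.00015, edgeR) and in ρ0 cells (log2 -2.45, adjusted p = 0.00014, edgeR; -2.69 and -2.13 without ρ0 control replicates 1 and 2). The part of cell division in the levels of the 9 genes was not tested.

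Whether the lines responded differently was tested as an interaction, the ρ0 response minus the parental response. For 6 of the 9 genes the responses differed, 3 in the positive and 3 in the negative direction, against 21.6% and 18.8% of all tested genes (40.4% in all). The medians were 0.13 for the 9 genes and 0.02 for all tested genes. TK2 differed most (log2 1.89, SE 0.135, adjusted p = 0.00022, edgeR; 1.90 and 1.85 without ρ0 control replicates 1 and 2), since it fell in parental cells and was at 0.12 in ρ0 cells. TFB1M followed (log2 1.55, SE 0.215, adjusted p = 0.0019, edgeR; 1.72 and 1.37). DGUOK rose in parental cells and was at -0.19 in ρ0 cells (log2 -0.63, SE 0.114, adjusted p = 0.0052, edgeR; -0.60 and -0.68). Only TK2 and TFB1M exceeded 1 on the log2 scale (2 of 9 positive and 0 negative, against 13.3% and 6.62% of all tested genes, 19.9% in all). The interactions of TK2, TFB1M and DGUOK were called in each of 8 fits that left out a library and in each of 9 other fits.

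The remaining interactions were less firm. TFAM responded less in ρ0 cells (log2 -0.80, SE 0.218, adjusted p = 0.024, edgeR; -1.03 and -0.54), a call lost in 6 of 8 fits that left out a library, with adjusted p of 0.065 to 0.096. POLG2 differed by 0.55 (SE 0.149, adjusted p = 0.023, edgeR; 0.54 and 0.54) and lost its call in 5 of 8 such fits and with group weights (adjusted p = 0.12, limma). SSBP1 differed by -0.49 (SE 0.140, adjusted p = 0.029, edgeR; -0.62 and -0.37) and lost it in 6 of 8 and under 2 of the scalings. The difference for POLRMT (0.34, SE 0.136) missed the threshold with both ρ0 controls (adjusted p = 0.084, edgeR), and passed it without replicate 1 (0.31, adjusted p = 0.014, edgeR) or replicate 2 (0.35, adjusted p = 0.0097, edgeR). For POLG (0.13, SE 0.104; 0.13 and 0.11) and TFB2M (-0.37, SE 0.299) no difference passed the test with both controls. That of TFB2M was -0.69 without ρ0 control replicate 1 (adjusted p = 2.3e-06, edgeR) and 0.03 without replicate 2.

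Other genes of the same processes were counted from lists of known components, and the shares over all tested genes are those given above for the same comparisons, except where a ρ0 control was left out. Without ρ0 control replicate 1, 31.0% of all tested genes were higher and 31.8% lower in starved ρ0 cells, and without replicate 2, 30.8% and 31.6%. Between the lines in full medium these shares were 37.7% and 39.5%, and 39.0% and 37.3%, so list counts from those fits stand against a higher background. With limma-voom and group weights, 5715 of 15262 tested genes were higher and 6510 lower in starved parental cells. The lists then had 5 of 13 higher and 6 lower (replisome and nucleoid), and 4 of 6 and 2 (transcription and termination). They had 1 of 17 and 12 (nucleotide supply), 11 of 20 and 5 (mitochondrial RNA processing), and 6 of 8 and 2 (biogenesis regulators). In the main fit of the replisome and nucleoid list, 4 of 13 rose and 4 of 13 fell in starved parental cells (median log2 -0.12). TOP3A, a topoisomerase that separates linked mtDNA molecules, rose from 58.19 and 56.06 CPM to 141.6 and 141.3 CPM (log2 1.31, adjusted p = 1e-04, edgeR), and the primase-polymerase PRIMPOL fell from 11.27 and 11.05 CPM to 6.970 and 6.239 CPM (log2 -0.76, adjusted p = 0.0027, edgeR). In starved ρ0 cells 3 of 13 rose and 4 fell, and leaving out either ρ0 control gave 5 and 5. The helicase Twinkle, listed as C10orf2, rose from 24.49 and 52.10 CPM to 76.28 and 77.08 CPM (log2 1.0, adjusted p = 0.028, edgeR; 0.56 and 1.66 without ρ0 control replicates 1 and 2). DNA2, a nuclease of nuclear and mitochondrial DNA, fell from 20.92 and 34.25 CPM to 6.388 and 7.787 CPM (log2 -1.96, adjusted p = 0.00075, edgeR; -2.28 and -1.56). Between starved cells of the lines, 9 of 13 were lower and 2 of 13 higher in ρ0 cells, with a median of -0.71. In full medium 4 were lower and 2 higher (7 and 4 without ρ0 control replicate 1, 8 and 2 without replicate 2), and TOP1MT, the mitochondrial topoisomerase, was lowest relative to parental cells, at 32.05 and 31.19 CPM against 97.95 and 100.3 CPM (log2 -1.65, adjusted p = 4.1e-06, edgeR; -1.67 and -1.57).

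In the transcription and termination list, 3 of 6 rose and 2 of 6 fell in starved parental cells (median 0.41). MTERF3, a repressor of mtDNA transcription, rose from 22.70 and 22.54 CPM to 62.93 and 65.26 CPM (log2 1.50, adjusted p = 0.00019, edgeR), while its relative MTERF2 fell from 20.09 and 19.90 CPM to 8.514 and 9.961 CPM (log2 -1.11, adjusted p = 0.00015, edgeR). With both ρ0 controls, MTERF2 alone of the 6 passed the test in starved ρ0 cells (log2 -0.84, adjusted p = 0.0019, edgeR; -0.85 and -0.82 without ρ0 control replicates 1 and 2). Without ρ0 control replicate 1, 0 rose and 2 fell, and without replicate 2, 2 rose and 1 fell. The MTERF3 responses differed between the lines by -1.09 (adjusted p = 0.011, edgeR; -1.34 and -0.79). In full medium 2 of 6 were higher and 2 lower in ρ0 cells (3 and 2 without ρ0 control replicate 1, 2 and 4 without replicate 2), among them the elongation factor TEFM (log2 0.83, adjusted p = 0.00062, edgeR; 0.93 and 0.78).

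The nucleotide supply list, which holds cytosolic and mitochondrial enzymes and carriers, had 7 of 17 lower and 1 of 17 higher in starved parental cells (median -0.40). In starved ρ0 cells 7 were lower and 2 higher (median -0.18), and without ρ0 control replicates 1 and 2 these were 8 and 5, and 9 and 5. SLC25A33, a mitochondrial pyrimidine nucleotide carrier, rose in parental cells from 5.397 and 6.148 CPM to 24.24 and 21.55 CPM (log2 1.99, adjusted p = 4.7e-05, edgeR). In ρ0 cells it rose by 1.06 (adjusted p = 0.0025, edgeR; 0.88 and 1.30 without ρ0 control replicates 1 and 2). RRM2, the S phase subunit of ribonucleotide reductase, fell in parental (log2 -1.33, adjusted p = 0.0025, edgeR) and in ρ0 cells (log2 -2.26, adjusted p = 0.00069, edgeR; -2.64 and -1.71). Between the lines in full medium 5 of 17 were higher and 7 lower in ρ0 cells (6 and 8, or 5 and 8, with a ρ0 control left out). TYMP, thymidine phosphorylase, whose loss disturbs mtDNA in patients, had 25 and 53 counts in parental controls and 377 and 350 counts in ρ0 controls (log2 3.25, adjusted p = 4e-04, edgeR; 3.16 and 3.43). ABAT, a transaminase that also acts in mitochondrial nucleoside salvage, had 274 and 266 counts against 19 and 18 (log2 -3.81, adjusted p = 4.9e-05, edgeR; -3.90 and -3.66).

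Mitochondrial RNA processing genes rose in 8 of 20 cases and fell in 3 of 20 in starved parental cells (median 0.28), or in 6 and 5 cases under upper-quartile or total-count scaling, where 26.3% and 24.7% of all tested genes were higher and 39.6% and 41.0% lower. In starved ρ0 cells 5 rose and 3 fell, with 5 and 8 without ρ0 control replicate 1 and 10 and 5 without replicate 2, against the shares of about equal size in both directions given above for those fits. PNPT1, which degrades mitochondrial RNA, rose from 86.56 and 85.27 CPM to 231.1 and 243.4 CPM in parental cells (log2 1.47, adjusted p = 0.00047, edgeR) and by 0.72 in ρ0 cells (adjusted p = 0.024, edgeR; 0.40 and 1.13). FASTK, a regulator of mitochondrial mRNA, fell in both lines (log2 -1.43, adjusted p = 4.7e-05, and -0.78, adjusted p = 0.0015, edgeR; in ρ0 cells -0.80 and -0.75 without control replicates 1 and 2). It was also higher in ρ0 than in parental controls, at 78.89 and 80.85 CPM against 20.99 and 25.53 CPM (log2 1.78, adjusted p = 1.4e-05, edgeR; 1.80 and 1.82). NSUN4, another rRNA methyltransferase, was lower in ρ0 controls (log2 -1.30, adjusted p = 2.6e-05, edgeR; -1.23 and -1.32). Between starved cells, 11 of 20 were lower and 2 higher in ρ0 cells.

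Of 8 regulators of mitochondrial biogenesis, 5 rose and 2 fell in starved parental cells (median 0.71), and 3 rose and 1 fell in starved ρ0 cells (median 0.35; 4 and 1, or 7 and 1, without ρ0 control replicate 1 or 2). The coactivator PPRC1 rose from 172.0 and 166.1 CPM to 322.7 and 323.6 CPM in parental cells (log2 0.93, adjusted p = 0.0050, edgeR). GABPA, the DNA-binding subunit of GABP, fell from 20.36 and 17.58 CPM to 9.623 and 10.10 CPM (log2 -0.94, adjusted p = 0.00029, edgeR). The coactivator PPARGC1B was at 40.95 and 35.01 CPM in parental controls and at 4.579 and 6.271 CPM in ρ0 controls (log2 -2.80, adjusted p = 9.2e-06, edgeR; -2.60 and -3.00). It rose by 0.77 in starved ρ0 cells (adjusted p = 0.0083, edgeR; 0.56 and 1.03).

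**Figure D4:**
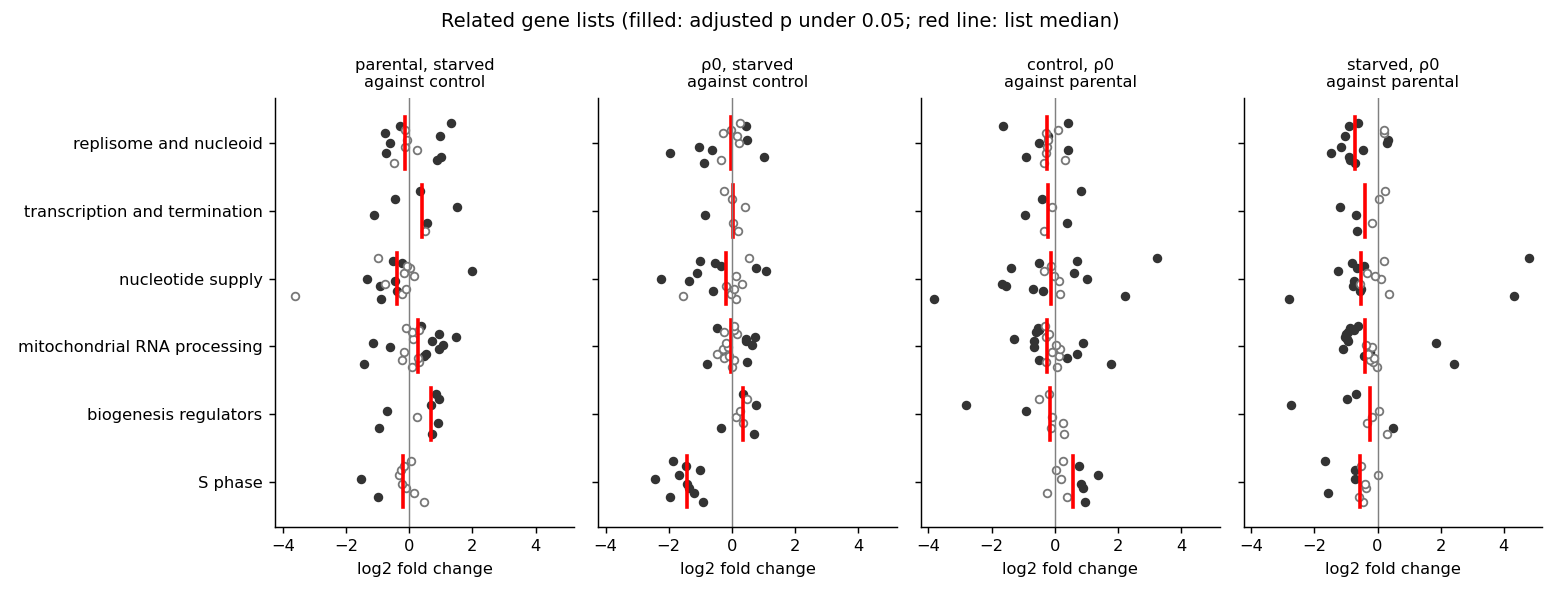
Log2 fold changes (horizontal axes) of the genes of 6 related lists (vertical axis) in the comparisons named above the panels. Each point is a gene, filled where its adjusted p was under 0.05, and red lines are list medians, such as 0.71 for the biogenesis regulators and -0.40 for nucleotide supply in starved parental cells.

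Some members share sequence with other genes, which could blend their counts. Each overlap is given as the longest between a single pair of exons, and the total length shared was not counted. TK2 exons overlap a non-coding RNA gene on the other strand by 519 bases and another by 321. They overlap a protein-coding gene on the same strand by 145 bases. None of these neighbours was in the count table, and their part in the TK2 values was not tested. SSBP1 overlaps TAS2R6P by 108 bases and WEE2-AS1 by 26, and DGUOK overlaps DGUOK-AS1 by 62. Of these, only WEE2-AS1 was in the table, with at most 28 counts. TFAMP1, a pseudogene of TFAM, had 20 to 212 counts, far under the 2285 to 10525 of TFAM, and was higher after starvation in both lines (log2 1.23 in parental and 1.14 in ρ0 cells, adjusted p = 0.0079 and 0.033, edgeR; in ρ0 cells 0.72 and 1.79 without control replicates 1 and 2). TFB1M overlaps TIAM2 on the other strand by 215 bases of exon. TIAM2 was at 0.20 in starved parental cells (adjusted p = 0.33, edgeR) and higher in ρ0 controls (log2 1.75, adjusted p = 8.4e-05, edgeR; 1.59 and 1.96 without control replicates 1 and 2), where TFB1M was lower. Between starved cells TIAM2 was higher in ρ0 cells (log2 0.78, adjusted p = 0.0044, edgeR), as TFB1M was. Starved ρ0 libraries had 306 and 237 counts of TIAM2 and 276 and 264 of TFB1M. With starvation in ρ0 cells TIAM2 fell (log2 -0.77, adjusted p = 0.0076, edgeR), or by -0.61 and -0.91 without control replicates 1 and 2. Its part in the TFB1M values was not tested.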

How the data were processed

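RNA of 8 MDA-MB-231 libraries, 2 in each of 4 groups, was sequenced. The authors deposited a single table that gives, for each gene symbol, raw counts without normalization. The submitters' processing notes name Bowtie, Partek and hg19. The roles of these tools, the annotation and the strand setting are not given in the sources used here. After filterByExpr 15262 of 23393 genes remained, and TMM factors scaled the libraries (R 4.3.3, edgeR 4.0.16). A single quasi-likelihood model covered the 4 groups (4 residual and 3.4 prior degrees of freedom, biological coefficient of variation 12.4%). Benjamini-Hochberg adjustment ran over all tested genes, with a threshold of 0.05. A standard error (SE) was obtained as the fitted log2 value over the root of its F statistic. Library totals of 25259503 to 31022155 counts limit the precision of low genes.

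The 9 genes and the lists were chosen with earlier results of these data known. From each list and comparison, named genes were among those with the largest rise and fall that passed the test, without overlap between groups and with a mean of at least 1 CPM. Genes named for sequence overlap and cell type markers fall outside that rule. Promoters came from RefSeq on GRCh38.p14 (35116 windows of 250 bases) and matched all 9 symbols. Alternatives were other scalings, no filter, at least 10 counts in every library, DESeq2 1.42.0, limma-voom (limma 3.58.1), a replicate block, fits to the 4 libraries compared, a log2 fold change beyond 1 and leaving out each library. The fits were also run on simulated counts, where each gene had the same spread in every group. That run therefore cannot speak to the wider spread of the ρ0 controls. Libraries of a group differed by more than sampling noise in every group.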

Additional observations from a re-analysis of the deposited data

Results flagged for a closer look

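The starvation responses of the lines differed by the interaction test (ρ0 minus parental, log2 scale, edgeR's quasi-likelihood test) for 6 of the 9 genes. The difference was 1.89 for TK2, 1.55 for TFB1M and 0.55 for POLG2, and -0.80 for TFAM, -0.63 for DGUOK and -0.49 for SSBP1. Of these, TK2, TFB1M and DGUOK passed the test in each fit that left out a library. TFAM, POLG2 and SSBP1 did not in 6, 5 and 6 of 8 such fits. Groups of 2 libraries are too small to test a single library for standing apart.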

How the results depend on the processing

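Over 45 values of single genes and their alternatives, 716 of 801 kept their direction and their side of the threshold, 49 no longer passed, 24 newly passed and 12 changed sign, none of them (0) a called one. The starvation values in parental cells that changed sign were POLRMT (-0.10 under upper-quartile scaling, -0.14 under total counts, -0.00978 with at least 10 counts in every library), POLG2 (-0.11, -0.15 and -0.023 in that order) and SSBP1 (-0.012 under total counts). Leaving out a library gave -0.052 to 0.10 for POLRMT and -0.095 to 0.11 for POLG2 there, and for TFB2M -0.091 to 0.61 between controls of the lines and -0.69 to 0.032 for the interaction. The median of all tested genes in starved parental cells shifted from -0.07 to -0.19 and -0.23 under these 2 scalings.

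Requiring a log2 fold change beyond 1 left 1 gene higher in starved parental cells, 0 higher and 0 lower in starved ρ0 cells, 0 higher and 3 lower between controls, 1 higher and 2 lower between starved cells, and 0 with a negative interaction. In starved ρ0 cells 1 gene was higher under total counts, 1 higher and 0 lower with the 4 libraries alone, and 1 higher and 0 lower with group weights. That last gene was TFB2M, which the main fit did not call, while POLG2, POLRMT, POLG and SSBP1 did not pass with group weights. Leaving out a library gave 1 to 4 higher and 0 to 3 lower there, 1 to 2 higher between controls, 1 to 3 higher between starved cells and 1 to 4 with a negative interaction. Over all tested genes, the number called in starved ρ0 cells went from 2937 higher and 3371 lower to 1462 and 1665 with the 4 libraries alone, 1797 and 2196 with group weights, and 4825 and 4959 without ρ0 control replicate 1. The cause was not tested.

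Replicate numbers did not pair the libraries, since deviations of same-numbered libraries correlated at -0.053 to 0.0386. With the replicate block, the members called were 3 higher and 3 lower in starved parental cells and 2 and 2 in starved ρ0 cells, and no call of the 9 genes changed. Precision was limited by 2 libraries a group, and for POLRMT and POLG2 in parental cells neither a difference nor its sign was shown.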

Other observations

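Over the 8 libraries, the genes whose log2 CPM followed that of TFAM most closely were GRPEL1, a cochaperone of mitochondrial protein import (r = 0.998), GATC, a subunit of a mitochondrial tRNA amidotransferase (r = 0.998), and OVGP1, an oviductal glycoprotein (r = 0.998). These coefficients rest on 4 groups and on shared library sizes, and the same 8 libraries gave TFAM its values. GRPEL1 had 120.4 and 125.7 CPM in parental controls, 246.2 and 260.0 CPM in starved parental cells, 62.79 and 86.47 CPM in ρ0 controls and 90.68 and 91.83 CPM in starved ρ0 cells. Its order of the groups, highest in starved parental and lowest in ρ0 control cells, was that of TFAM.

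Among the 9 genes themselves, TFAM was most like DGUOK (r = 0.895) and least like TK2 (r = -0.92), and POLRMT was most like POLG2 (r = 0.838) and least like SSBP1 (r = -0.899). Between the purine kinase DGUOK and the pyrimidine kinase TK2, r was -0.91. These libraries form 4 groups, and TK2 stood at 8.153 and 8.554 CPM in starved parental libraries against 27.19 to 33.67 CPM in all others. Neither kinase passed the test for starvation in ρ0 cells.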
